A study of Mus musculus with 2 samples.

Results

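Kinesins and tubulins are the motors and the building blocks of microtubules, and 63 genes of these families were measured in regulatory T (Treg) cells with and without the microRNA miR-125a. The members were chosen by symbol among genes with a probe set that names no other gene: Kif genes with a number except Kif3a, alpha, beta, gamma, delta and epsilon tubulins (Tuba, Tubb, Tubg, Tubd, Tube, with the Tubgcp genes for proteins of the gamma-tubulin complex), and the stathmins (Stmn). Tuba1b, Tuba1c and Tuba3a, read here by probe sets that also name another gene, are therefore not among them. They were 36 kinesin genes, 22 tubulin or gamma-complex genes and 5 stathmins of the 18193 genes so named. A probe set is a group of short probes whose signals are summarised into 1 value. The 63 genes were read by 145 probe sets, and 43 of them passed a minimum mean signal of 62.5, the median over all probe sets.

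The cells were CD4+CD25hi T cells sorted from mouse spleen at 6 to 8 weeks of age. One pool of RNA came from miR-125a-deficient mice and the other from wild-type littermates, with RNA of different mice mixed equally within each genotype. The number of mice in a pool, the strain and the way the microRNA gene was deleted are not given in the sources used here. Each pool was hybridised to 1 Affymetrix mouse array, so 2 arrays make up the whole study and no difference below has a replicate, a test or a p-value.

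Microtubules are hollow polymers of alpha- and beta-tubulin pairs, and gamma-tubulin complexes start new ones at the centrosome. Kinesins walk along microtubules with cargo, or push, crosslink and shorten them, and a subset of them builds the spindle and divides the cell. Stathmins bind free tubulin pairs and hold them back from the polymer. In T cells the microtubule network turns its organising centre towards the contact with another cell, and it is rebuilt as a spindle at each division.

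The knockout mice lack miR-125a, whose gene lies on mouse chromosome 17 in the GRCm38.p6 build of RefSeq. Its mature strands are shown because they define the genotype that is compared, with the seed (bases 2 to 8, which pair with targets) in capitals. The -5p strand is at chr17:17830817-17830840 and the -3p strand at chr17:17830855-17830876, both on the plus strand.
mmu-miR-125a-5p: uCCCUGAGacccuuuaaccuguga
mmu-miR-125a-3p: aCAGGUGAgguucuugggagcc
The strands have different seeds, CCCUGAG and CAGGUGA. No search of the members' transcripts for these seeds was made.

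The Treg label was checked against marker genes. All 5 Treg markers passed the minimum, and they went both ways. Il2ra, which encodes CD25, was at 15390 in wild-type and 18551 in deficient cells (log2 ratio 0.27). Foxp3, the Treg transcription factor, was more than 2-fold lower, at 1631 and 694 (-1.21). Ikzf2 had a ratio of 0.45, Ctla4 0.02 and Tnfrsf18 -0.08. The T cell markers Cd3e, Cd4 and Cd3g had -0.41, -0.15 and 0.01. The cells were sorted by CD4 and CD25, so the presence of Cd4 and Il2ra is no separate check of the label. The summed signal of the 2 CD8 T cell markers was 873 in wild-type and 627 in deficient cells, and that of the 7 measured macrophage, monocyte and dendritic cell markers was 555 and 395, with 3 of the 7 past the minimum. The NK cell markers had sums of 5452 and 3987, nearly all from Nkg7 (log2 ratio -0.45), with Ncr1 below the minimum, and the 4 plasma cell markers 16071 and 14405, mostly from Xbp1. Of the B cell markers 1 of 4 passed, and of the neutrophil and erythroid markers 0 of 3 and 0 of 2. The 6 platelet markers all passed, with sums of 2511 and 3099. The part of these cells in the values below was not tested, and in a bulk sample fewer cells of a type and less RNA per cell cannot be told apart.

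Most kinesin and tubulin genes differed little between the pools. Among the 43 members past the minimum, 1 was at least 2-fold higher in the miR-125a-deficient pool, the alpha tubulin Tuba8, and 1 at least 2-fold lower, the beta tubulin Tubb2b. Over all 10583 genes past the minimum, the share at least 2-fold higher was 1.08%, and the share as far below was 1.18%. At 1.5-fold in either direction the members numbered 4 (9.30%), against 10.8% of all genes. The log2 ratio, that of deficient over wild-type signal after a pseudocount of 16.3 was added to each, had a median of -0.04 over the 43 members and 0.01 over all genes, and 21 members lay above 0 and 22 below. These shares do not set the family as a whole apart from the array.

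The yardstick for a single ratio was the spread between probe sets of the same gene, since no array was repeated. This probe-set SD was 0.37 on the log2 scale for the dimmest and 0.18 for the brightest genes, and it leaves out variation between mice. More than 2 such SDs from 0 lay 8 of the 43 members (18.6%), against 12.4% of all genes. These 8 were Tuba8, Tuba4a and Tubg1 above 0, and Tubb2b, Kif7, Tubgcp4, Kif2a and Tubb6 below. Of these Tuba8 passed the minimum only through the deficient pool. Within 1 SD of 0 lay 28 members (65.1%), against 59.4% of all genes.

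**Figure D1:**
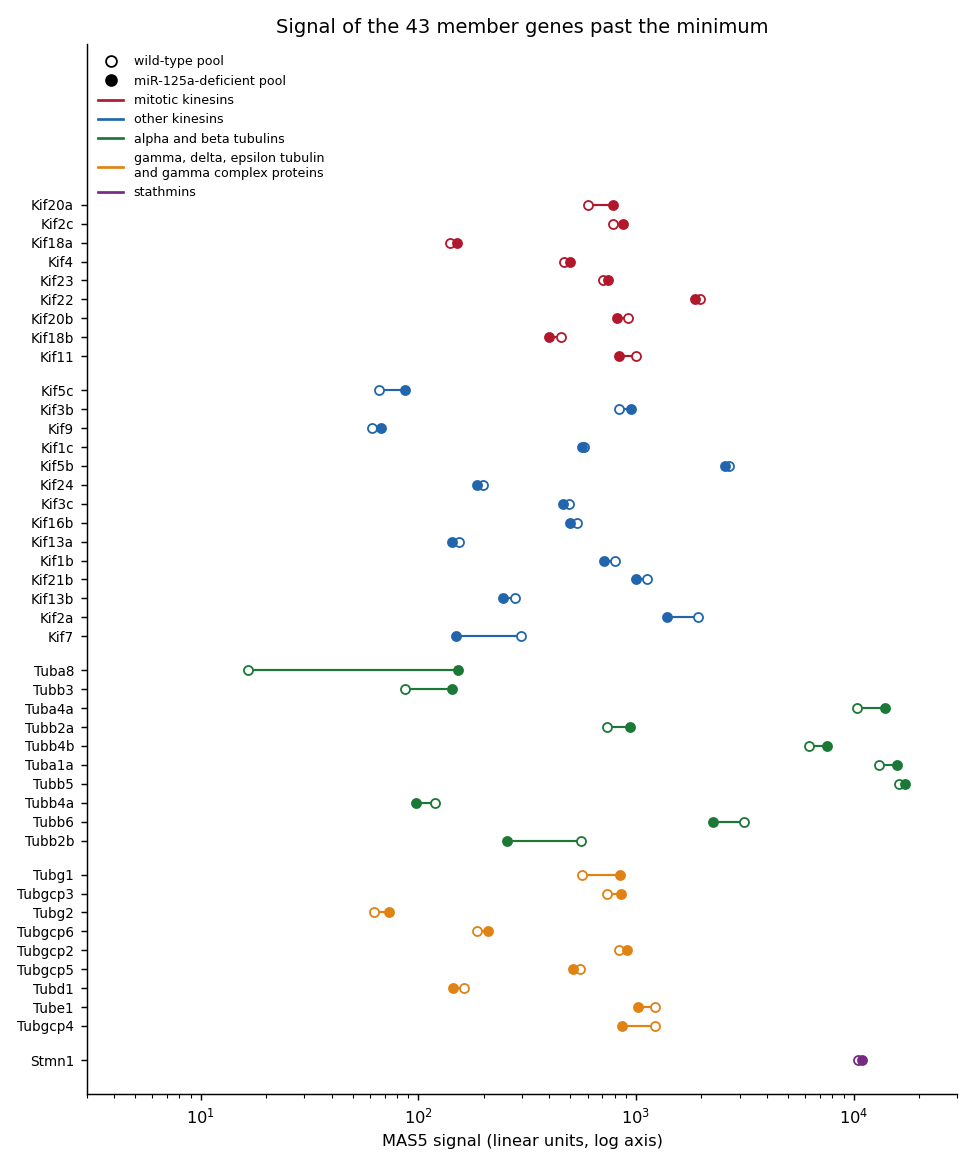
Signal of the 43 member genes past the minimum in the wild-type (open) and miR-125a-deficient (filled) pool, on a log axis of linear MAS5 units, 1 array each, grouped by role and ordered by ratio. Tuba8 runs from 16.6 to 153 and Tubb2b from 558 to 257, while the markers of most other genes nearly touch.

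**Figure D2:**
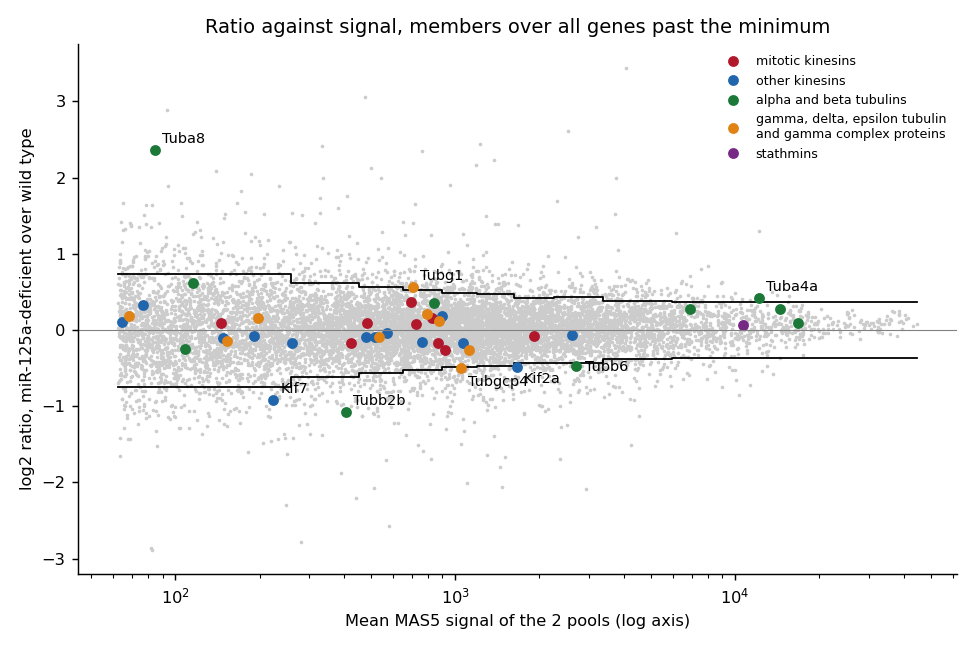
Log2 ratio of deficient over wild-type signal against mean signal (log axis) for all 10583 genes past the minimum (grey) and the members (coloured by role), with black steps at 2 probe-set SDs on either side of 0. The 8 named members lie outside the steps.

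The alpha and beta tubulins, which form the microtubule wall, held the highest and the lowest ratio of members past the minimum. Of 13 measured genes 10 passed the minimum, 7 of them above 0, with a median log2 ratio of 0.27. The median was 0.16 with each gene averaged over its probe sets and 0.15 without probe sets that may read more than 1 transcript. The 3 alpha tubulins past the minimum were all above 0. Tuba8, counted in the 7 and in the 3, passed only through the deficient pool, so it could not have lain below 0. Of the 7 beta tubulins 4 were above 0 and 3 below, with a median of 0.09. Tubulin genes are close relatives in sequence, so a probe set of one can also take up transcript of another.

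Tuba8, an alpha tubulin best known from heart, muscle and testis, had a signal of 16.6 in wild-type and 153 in deficient cells. Its log2 ratio was 2.36, with a probe-set SD of 0.37 at this signal, or 5.14-fold on the scale with the pseudocount. The wild-type signal is at the level of the pseudocount and below the minimum, and the gene passed the minimum only through the deficient pool. With a pseudocount of 1 its ratio was 3.13 and with one at the median signal 1.44. Its other probe set was at 37.7 and 36.9, below the minimum in both pools, with a ratio of -0.02, so the difference rests on 1 of 2 probe sets.

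The other alpha tubulins past the minimum were higher by smaller amounts. Tuba4a, an alpha tubulin whose gene does not encode the final tyrosine found on most others, was at 10405 in wild-type and 13949 in deficient cells, a log2 ratio of 0.42 (probe-set SD 0.18). Its second probe set past the minimum went from 4000 to 5266, with a ratio of 0.40, close to the first. Tuba1a went from 13104 to 15814, a ratio of 0.27 that is within 2 probe-set SDs. That probe set is of the shared kind, whose suffix (_a_at, _s_at or _x_at) marks that it may read more than 1 transcript.

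Alpha tubulin probe sets that name more than 1 gene lie outside the chosen set. The probe set shared by Tuba1b and Gm5620 went from 26343 to 30237 (0.20), that of highest signal for Tuba1c and Gm6682 from 1397 to 1340 (-0.06), and that of highest signal for Tuba3a and Tuba3b from 467 to 515 (0.14). A probe set of Tuba1a and Gm6682 below the minimum, at 47.1 and 24.4, had a ratio of -0.64, opposite in sign to that of Tuba1a.

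Tubb2b, a beta tubulin prominent in the developing brain, was the only member past the minimum at least 2-fold lower. Its signal was 558 in wild-type and 257 in deficient cells, a log2 ratio of -1.07 (probe-set SD 0.31). It has 1 probe set that names it alone. A second probe set that names Tubb2b together with the pseudogene Tubb2a-ps2 went from 192 to 101, with a ratio of -0.83, the same direction. With a pseudocount at the median signal the ratio of Tubb2b was -0.96, which is under 2-fold.

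Tubb2a, the next protein-coding gene beside Tubb2b on chromosome 13 in the RefSeq gene table, was on the other side of 0. Its signal was 734 in wild-type and 942 in deficient cells, a ratio of 0.35 (probe-set SD 0.26). That probe set is of the shared kind. A second probe set of Tubb2a, not of the shared kind but below the minimum, went from 45.1 to 74.3 (0.56). Tubg1 and Tubg2 on chromosome 11 were the other adjacent pair of members, and both were above 0.

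Tubb6, a beta tubulin expressed in many tissues, was lower by both of its probe sets. The brighter went from 3128 to 2257, with a ratio of -0.47 (probe-set SD 0.22), and the dimmer from 124 to 105, with -0.21. Tubb5, the main beta tubulin of dividing cells, was almost level, at 16209 and 17272 with a ratio of 0.09 (probe-set SD 0.18) and 0.02 by its other probe set.

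Tubb4b had probe sets of both signs. The brightest went from 6254 to 7559 (0.27), and the other two past the minimum, both of the shared kind, from 258 to 218 (-0.23) and from 64.7 to 65.2 (0.01). The mean over the 3 was 0.02.

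The beta tubulins named for neurons and platelets were dim. Tubb3, the neuronal isotype, was at 87.3 in wild-type and 143 in deficient cells, 1.54-fold higher with a log2 ratio of 0.62, which is within 2 probe-set SDs of 0 (the SD is 0.37). Of the 4 neuron markers measured beside it, 1 passed the minimum, and their sums were 134 and 144. Tubb4a, a brain isotype, was at 119 and 98.0 (-0.25). Tubb1, the platelet isotype, was below the minimum at 24.3 and 34.1, beside platelet markers whose ratios ran from -0.57 to 0.61.

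The gamma, delta and epsilon tubulins and the gamma-complex proteins went both ways. All 9 passed the minimum, with 5 above 0, 4 below and a median of 0.12. Of the 7 that belong to the complexes that start new microtubules, the gamma tubulins and the Tubgcp genes, 5 were above 0 and 2 below, with a median of 0.16. Tubg1, the widely expressed gamma tubulin, was at 568 in wild-type and 845 in deficient cells, a log2 ratio of 0.56 (probe-set SD 0.26). It too has 1 probe set. Tubg2, the second gamma tubulin, was near the minimum, at 62.8 and 73.3 (0.18).

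Tubgcp4, a subunit of the gamma-tubulin ring, was lower by all 3 of its probe sets. They went from 1226 to 867 (-0.49), from 725 to 467 (-0.61) and from 487 to 394 (-0.30). The probe-set SD at this signal was 0.24. The 4 other ring proteins stayed within 1 probe-set SD: Tubgcp2 and Tubgcp3, which form the basic unit with gamma tubulin, had ratios of 0.12, at 839 and 914, and of 0.22, at 734 and 855. Tubgcp6 had 0.16 and Tubgcp5 -0.09. Members of the same complex therefore had ratios from -0.49 (Tubgcp4) to 0.56 (Tubg1) on these arrays.

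Tube1 and Tubd1, epsilon and delta tubulin, are needed for the triplet microtubules of centrioles. Tube1 went from 1222 to 1018 (-0.26) and from 596 to 398 (-0.56) by 2 probe sets and from 210 to 236 (0.16) by the third, so its sign depends on the probe set. Tubd1 was at 162 and 145 (-0.14).

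Mitotic kinesins, the motors of the spindle and of cytokinesis, were nearly level between the pools. Of the 11, 9 passed the minimum, 5 above 0 and 4 below, with a median of 0.08 and none at 1.5-fold. None was more than 2 probe-set SDs from 0. The 11 were set by a chosen list, which places Kif2a, a relative of Kif2c, with the other kinesins. Kif2a, at -0.48, lay more than 2 probe-set SDs below 0. Kifc1 and Cenpe, whose symbols fall outside the name rule, are not among the 11 and had ratios of -0.24 and 0.11. The highest ratio of the 9 was that of Kif20a, which carries the chromosomal passenger complex to the midzone. It was at 604 in wild-type and 781 in deficient cells (0.36, probe-set SD 0.26). Its 1 probe set is of the shared kind, so with that kind left out Kif20a had no value.

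Kif11, the motor that pushes the spindle poles apart, had the lowest ratio of the 9 past the minimum, and its probe sets disagreed in sign. Its brightest probe set went from 1003 to 835 (-0.26), and its others from 613 to 757 (0.30) and from 124 to 177 (0.46). The mean over the 3 was 0.17, and with the shared kind left out the value was 0.30.

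Kif2c, which takes microtubules apart at centromeres, was above 0 by all 3 probe sets past the minimum. They went from 783 to 875 (0.16), from 242 to 343 (0.47) and from 70.8 to 98.4 (0.40). The brightest of them is of the shared kind, and with that kind left out the value for Kif2c was 0.47. One more probe set, at 31.5 and 47.4 below the minimum, had 0.41.

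Kif22, a motor on chromosome arms, went from 1964 to 1861 (-0.08), and its other probe sets had ratios of 0.03 and -0.02. Kif23, which bundles the midzone together with Racgap1, had 0.08 by its brightest probe set, at 707 and 747, and -0.31 by the other, at 101 and 78.3. Kif20b, a cytokinesis motor, went from 920 to 819 (-0.17) by a probe set of the shared kind, and its brightest probe set of the other kind was below the minimum, at 24.1 and 27.8.

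Kif4, a chromosome motor that works with Prc1, had a ratio of 0.09, Kif18a, which damps chromosome movement, 0.10, and Kif18b, which acts on astral microtubules, -0.17. Kif15, the second motor able to hold the spindle poles apart, was below the minimum, at 56.3 in wild-type and 3.46 in deficient cells. Of the 20 members below the minimum it was the 1 whose brightest probe set had a ratio past 2-fold, -1.88 with the pseudocount, and such dim MAS5 values are not firm. Kif14, of cytokinesis, was at 16.3 and 4.35.

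Genes that work with these motors lay mostly above 0, by small amounts, and so did proliferation genes, some of them by more. Of 16 partners of the mitotic kinesins, all past the minimum, 15 were above 0, with a median of 0.16 and none at 2-fold. Tacc3, which crosslinks spindle fibres, had the highest ratio, 0.38, at 800 and 1046, and Numa1, which gathers the poles, the lowest, -0.03, at 1675 and 1640, a sign that turned when the arrays were set to equal medians. Of 20 measured proliferation genes 18 were above 0, with a median of 0.21 and a range from -0.43 (Cenpa, a centromere histone, at 4409 and 3278) to 0.87 (Tyms, which makes thymidylate, at 59.7 and 123). Tyms passed the minimum only through the deficient pool. At least 1.5-fold higher were 4 of the 20 and as far below 0, against 530 and 611 of all 10583 genes. Among the 4 were Rrm1, at 2153 and 3522 (0.71, probe-set SD 0.22), and Rrm2, at 3784 and 5841 (0.62, probe-set SD 0.19). Over all genes past the minimum 51.0% were above 0. The difference between the motors and these lists was not tested.

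Promoters were searched for 2 motifs known from genes of the G2 and M phases, the CHR element (TTTGAA or TTCGAA) and the CCAAT box (CCAAT), on both strands in the 250 bases before the start. RefSeq promoters (GRCm38.p6) were found for 49 of the 63 members, 53 promoters in all. A CHR element was present in 5 of 10 mitotic kinesin promoters (50%), in 4 of 24 promoters of other kinesins (16.7%) and in 17.1% of all 32851 promoters. A CCAAT box was present in 6 of the 10 (60%), in 8 of the 24 (33.3%) and in 33.8% of all. The alpha and beta tubulins were close to the mitotic kinesins for the CCAAT box, with 5 of 10 promoters (50%), and had a CHR element in 2 (20%). For the gamma, delta and epsilon tubulins with the gamma-complex proteins these were 1 of 7 (14.3%) and 0 of 7. For the stathmins they were 1 of 2 and 0 of 2. No motif contains another, TTCGAA reads the same on both strands, and a match describes letters, not a bound site.

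Promoters are shown for the 3 mitotic kinesins of highest ratio that the table holds, and for Tuba8, the member of highest ratio, with matches to these motifs in capitals. They are Kif2c (chr4:117178773-117179022, minus strand), Kif18a (chr2:109280488-109280737, plus strand), Kif4 (chrX:100625815-100626064, plus strand) and Tuba8 (chr6:121210484-121210733, plus strand).
Kif2c: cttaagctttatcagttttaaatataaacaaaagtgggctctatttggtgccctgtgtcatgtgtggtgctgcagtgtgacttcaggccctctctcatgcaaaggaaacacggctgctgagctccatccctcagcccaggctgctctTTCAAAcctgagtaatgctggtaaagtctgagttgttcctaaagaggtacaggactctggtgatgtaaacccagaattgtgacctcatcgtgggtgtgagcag
Kif18a: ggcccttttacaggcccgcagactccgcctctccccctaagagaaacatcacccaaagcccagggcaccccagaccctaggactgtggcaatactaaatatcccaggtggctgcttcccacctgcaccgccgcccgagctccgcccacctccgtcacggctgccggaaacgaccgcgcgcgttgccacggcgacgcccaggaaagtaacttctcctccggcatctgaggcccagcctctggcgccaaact
Kif4: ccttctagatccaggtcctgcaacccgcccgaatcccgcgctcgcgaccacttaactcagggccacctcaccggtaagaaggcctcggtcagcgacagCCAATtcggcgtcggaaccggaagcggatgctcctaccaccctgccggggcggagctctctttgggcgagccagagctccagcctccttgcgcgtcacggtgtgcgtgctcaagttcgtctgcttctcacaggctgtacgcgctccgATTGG
Tuba8: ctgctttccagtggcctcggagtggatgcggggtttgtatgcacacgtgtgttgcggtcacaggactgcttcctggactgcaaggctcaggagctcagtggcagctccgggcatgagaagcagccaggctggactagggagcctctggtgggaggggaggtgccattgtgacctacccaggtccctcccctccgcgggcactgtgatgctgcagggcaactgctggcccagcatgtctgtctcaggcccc
Kif2c has TTTGAA on the opposite strand, beginning 103 bases before the start. Kif4 has CCAAT 152 bases before the start and again, on the opposite strand, at 5 bases before it. Kif18a and Tuba8 have no match in this window. The start used for Kif2c lies inside the longest gene model of the table.

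The other kinesins, mostly carriers of vesicles and organelles, lay below 0 more often than above, by small amounts. Of 25 measured 14 passed the minimum, and 11 of these were below 0 and 3 above, with a median of -0.09. All 11 were within 1 probe-set SD of 0 except Kif7 and Kif2a. Kif9, counted in the 3 above, passed the minimum only through the deficient pool, at 61.4 and 67.7. It could not have lain below 0. Under quantile normalization Kif24 and Kif1c turned to the other side of 0, and under loess Kif1c did.

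Kif7, the kinesin of the Hedgehog pathway at the tip of the cilium, had the lowest ratio of the kinesins past the minimum. Its signal was 298 in wild-type and 150 in deficient cells, 1.89-fold lower, and its log2 ratio was -0.92 (probe-set SD 0.37). It has 1 probe set. Over the alternative settings it ran from -0.99 to -0.76, on the same side throughout and under 2-fold.

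Kif2a, a relative of Kif2c that shortens microtubule ends, was lower by all 4 probe sets past the minimum. They went from 1938 to 1384 (-0.48), from 1005 to 732 (-0.45), from 814 to 661 (-0.29) and from 231 to 196 (-0.22). Their mean was -0.36, with an SD of 0.12 over the probe sets. Kif2a and Kif2c, both microtubule depolymerases, thus lay on opposite sides of 0 by every probe set past the minimum.

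Kif5b, the conventional kinesin heavy chain of most cells, was below 0 by all 6 probe sets, but by little. The brightest went from 2680 to 2556 (-0.07), and the range was -0.45 to -0.01, with a mean of -0.20. Its brain relatives were dim: Kif5c was at 65.7 and 87.2 (0.33), and Kif5a was below the minimum at 48.9 and 68.0.

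Kif21b, which limits microtubule growth and is known from the T cell contact zone, went from 1130 to 1005 (-0.17, probe-set SD 0.24). The vesicle motors of the Kif1 group had probe sets of both signs. Kif1b went from 803 to 717 (-0.16), with its 5 probe sets past the minimum between -0.81 and 0.27. Kif1c went from 579 to 563 (-0.04), with others at -0.37 and 0.76.

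Kif3b, a subunit of the heterotrimeric kinesin that serves cilia and vesicles, had 4 probe sets past the minimum, 2 on each side of 0. The brightest went from 837 to 951 (0.18), and the others had -0.19, 0.62 and -0.18. Its relative Kif3c had -0.08. Kif13a, Kif13b and Kif16b, which carry endosomes and membrane proteins, had -0.10, -0.17 and -0.10. Kif24, of the centriole, had -0.08 and Kif9 0.11.

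**Figure D3:**
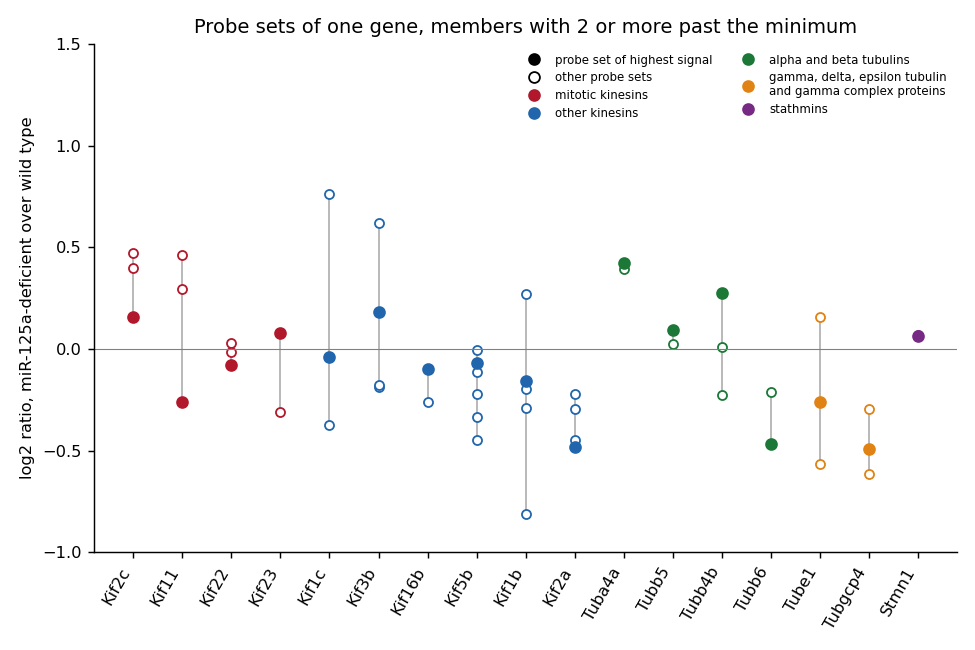
Log2 ratios of deficient over wild-type signal for each probe set past the minimum in the 17 members that have 2 or more, with the probe set of highest signal filled. In 9 genes all probe sets lie on one side of 0, among them Kif2a, Kif5b and Tubgcp4 below and Kif2c and Tuba4a above, and in 8 they lie on both sides.

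Of the 17 members with 2 or more probe sets past the minimum, 4 had all of them above 0 and 5 all below. The remaining 8, among them Kif11, Kif23, Kif1c and Tubb4b, had both signs, so their side of 0 depends on the probe set. The other 26 members past the minimum rested on 1 probe set.

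Stmn1, which keeps tubulin pairs from assembling and is abundant in dividing cells, was level. It was at 10475 in wild-type and 10951 in deficient cells (0.06, probe-set SD 0.18), and its second probe set went from 971 to 1019 (0.07). The 4 other stathmin genes, which include the neuronal Stmn2, Stmn3 and Stmn4, were below the minimum.

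In all 20 members lay below the minimum, 13 of them kinesins. Their wild-type signals ran from 1.49 to 56.3 and their deficient-pool signals from 1.61 to 68.0. They include Kif1a and Kif5a, motors of axons, Kif17, a motor of cilia and dendrites, and Kif2b, Kif6, Kif12, Kif21a, Kif26a, Kif26b, Kif27 and Kif28. At this signal a MAS5 value cannot show whether a gene is expressed.

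Kinesin relatives outside the name rule, light chains and motors of other symbols, lay mostly below 0. Of 8 measured, all past the minimum, 6 were below 0, with a median of -0.19. Kifc2, a motor of nerve processes, was lowest at 101 and 46.0. Its ratio was -0.92, under 2-fold only through the pseudocount, and its mean signal of 73.7 was near the minimum. Kifc2, counted in the 6, passed only through the wild-type pool, so it could not have lain above 0. The light chain Klc3, at a higher signal, was next, at 782 and 419 (-0.88, probe-set SD 0.28). Cenpe, the motor of the kinetochore, was highest at 693 and 747 (0.11). Averaged over its probe sets it was -0.09.

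Dynein and dynactin, the motor that walks the other way and its activator, were nearly level. Of 19 genes past the minimum 11 were above 0, with a median of 0.04, from Dync1i2, an intermediate chain, at -0.43 (3443 and 2552) to Dctn1, the largest dynactin subunit, at 0.28 (1532 and 1859). Of 17 genes of tubulin folding and modification 9 were above 0, with a median of 0.00. Atat1, which acetylates alpha tubulin, was lowest at -0.61 (257 and 162) and Ttl, which restores its final tyrosine, highest at 0.58 (131 and 204). With the shared kind left out these were 0.03 for both genes.

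Microtubule-binding and severing proteins had 10 of 14 genes above 0 and a median of 0.17. Camsap2, which caps and stabilises minus ends, was highest, at 922 in wild-type and 1656 in deficient cells, 1.78-fold with a ratio of 0.83 (probe-set SD 0.24). Katna1, the severing subunit of katanin, was lowest at -0.27 (1937 and 1607). With the pseudocount of 16.3, none of the 6 lists had a gene past the minimum at 2-fold, against 2.26% of all genes. With a pseudocount of 1, Kifc2 and Tyms passed 2-fold, at -1.12 and 1.03.

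**Figure D4:**
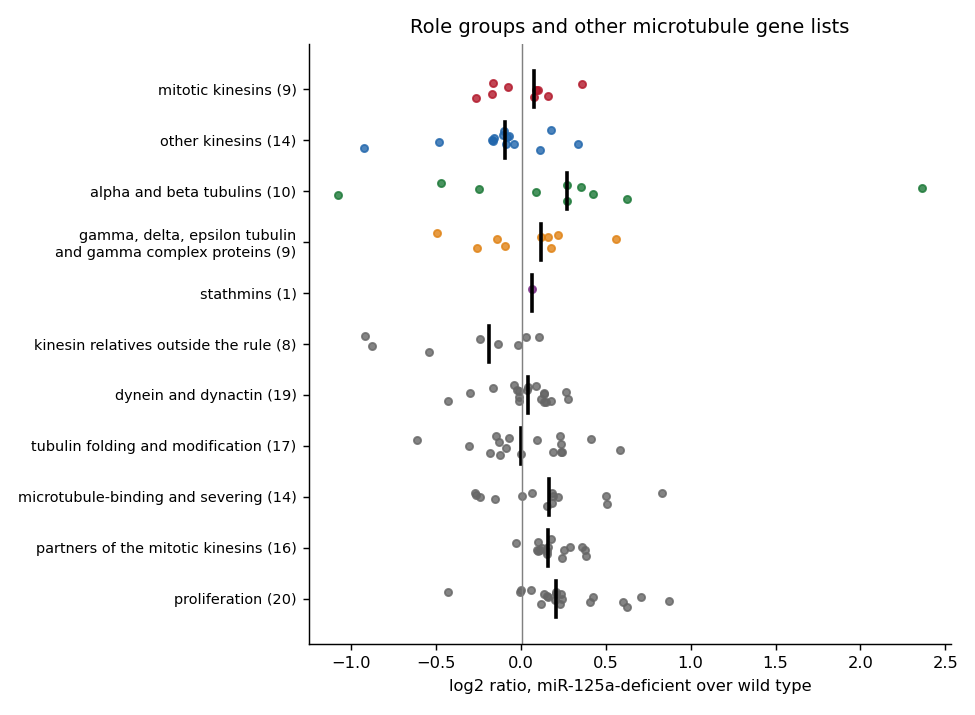
Log2 ratios of deficient over wild-type signal for the genes past the minimum in each role group (coloured) and each further microtubule or proliferation list (grey), with the number of genes in brackets, black bars at the medians and a vertical line at the median of all genes, 0.01. The partners of the mitotic kinesins lie almost all to the right of the line and the mitotic kinesins on both sides.

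The side of 0 can turn only with the scaling of the arrays or the choice of probe sets, since a pseudocount keeps the sign and a minimum leaves the ratio of a gene as it is. Under the 3 other scalings 2 of the 43 members past the minimum turned, Kif1c and Kif24. Another choice of probe sets gave 19 of the members a different value, and 6 of these turned: Kif11, Kif1c, Kif20b, Kif23, Kif3b and Tube1. The other members kept the same probe set or had no value without the shared kind.

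**Figure D5:**
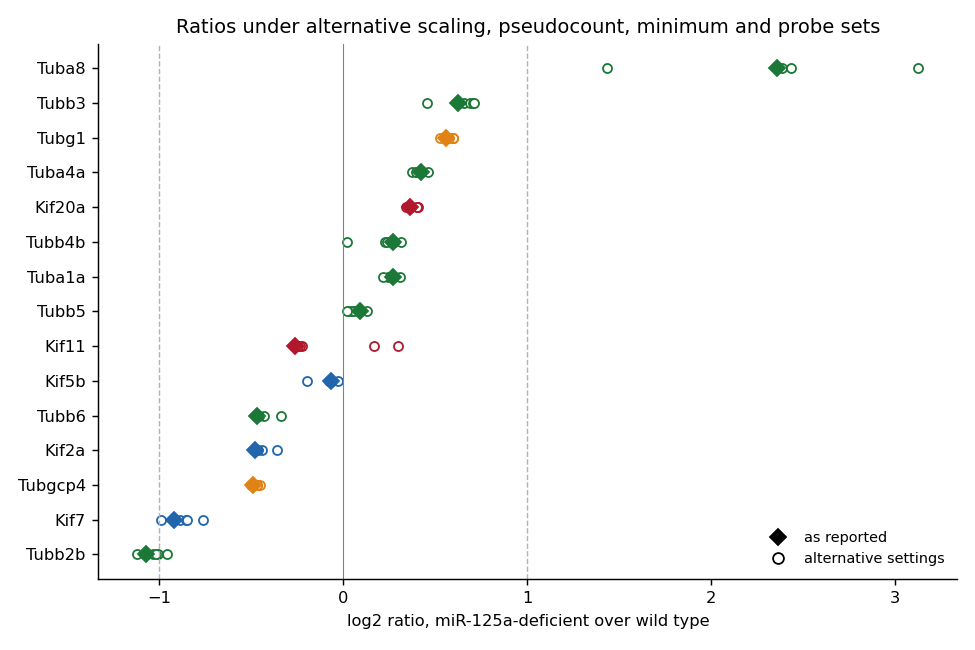
Log2 ratios of deficient over wild-type signal for 15 members as reported (diamonds) and under the alternative settings (circles), with dashed lines at 2-fold. Tuba8 lies between 1.44 and 3.13, always by the same probe set, since no setting used its dimmer one. Tubb2b lies between -1.12 and -0.96, and Kif11 has values on both sides of 0.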

How the data were processed

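The authors deposited 1 log2 value for each of 45101 probe sets per array, and the submitters' processing notes name MAS5, with no version. MAS5 subtracts mismatch signal, so low values vary widely. Turned back to linear signal, both arrays had a mean of 500.0 once 2% was trimmed at either end, and the median was 64.1 (wild type) and 62.4 (deficient). The lowest value, 0 on the log2 scale, is a bound.

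A gene was represented by its probe set of highest mean signal. Probe sets naming several genes, no gene or a control were left out. The pseudocount was the 25th percentile of all signals. The probe-set SD is the SD of the ratio difference between a gene's 2 brightest probe sets over the square root of 2, in 10 signal groups of 5030 genes in all. All 63 members matched RefSeq gene IDs. Members, lists and settings were chosen with earlier results of these data known. Values were given for members at 1.5-fold or more, the 3 brightest of each role, those with probe sets of both signs and those below the minimum at 2-fold. Other members, such as those past 2 probe-set SDs, and the list genes Rrm1, Rrm2, Klc3 and Kifc1 were described after their values were seen. The code was tested on simulated data (Python 3.11.15, pandas 2.3.3, statsmodels 0.14.6).

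Alternatives were 3 scalings (equal medians, quantile, loess, span 0.3), a pseudocount of 1 or at the median signal (63.1), no minimum and one at the 75th percentile (451), the mean over probe sets, probe sets of the shared kind left out, and folds of 1.5 and 3.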

Additional observations from a re-analysis of the deposited data

How the results depend on the processing

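Of 141 group counts and medians recomputed, 129 stayed within 1.5 times (counts) or 1 probe-set SD (medians) of the reported value, and 12 did not. Some of the 129 could not move. With no minimum, a group whose genes had all passed, such as the proliferation list (0.21), kept its median. The probe-set SD, of single genes, is wider than most of these medians, so a median could change sign and count as kept. The members' median, -0.04 as reported, did so with quantile normalization (0.005), loess (0.004) and no minimum (0.06). It also did with the minimum at the 75th percentile (0.01) and the mean over probe sets (0.02). The mitotic kinesins' median, 0.08 as reported, was -0.08 with no minimum. The count of members at least 2-fold higher, 1 as reported, was 0 with the minimum at the 75th percentile and 2 at 1.5-fold. The count at least 2-fold lower, also 1, was 0 with a pseudocount at the median signal, with the minimum at the 75th percentile and at 3-fold, and 2 with no minimum and at 1.5-fold. The count of all genes at 2-fold in either direction, 239 as reported, was 115 with the pseudocount at the median signal, 1387 with no minimum, 82 with the minimum at the 75th percentile, 1141 at 1.5-fold and 50 at 3-fold. A larger pseudocount shrinks every ratio, and a minimum changes how many genes are counted. Of 497 single-gene values, 175 could not move, because a minimum leaves the ratio as it is or the same probe set was used. Of the other 322, 307 stayed within 1 probe-set SD and 15 moved further. The genes reported past 2-fold were Tuba8, Tubb2b and Kif15. No setting gave them another probe set, so only a scaling could have changed their sign, and 0 of them changed it. The split of all genes at 2-fold was 114 higher and 125 lower as reported, 47.7% higher, and 147 and 106 with loess, 58.1% higher. With quantile normalization it was 57.6% and with no minimum 58.3%. The median of all genes moved by under 0.1 on the log2 scale in all 9 alternatives. Signals near the pseudocount, as for Tuba8 in the wild-type pool, limit what a ratio can show. No paired analysis was possible because each genotype has 1 array.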
